A study of Mus musculus with 12 samples.

Results

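The comparison described here asked, gene by gene, whether forced miR-155 expression changed transcript levels differently in NK1.1- and in NK1.1+ thymic iNKT cells. The quantity was the genotype-by-pool difference, which is the log2 ratio of miR-155KI over WT in the NK1.1- pool minus the same log2 ratio in the NK1.1+ pool. All 12 libraries of the series entered, 3 in each of 4 groups. Of the 48709 genes in the count table, 14401 passed the filter on low counts and were tested, and 4 passed an adjusted p of 0.05.

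The groups were the NK1.1- and the NK1.1+ pool of 2 genotypes, WT and miR-155KI, all from thymi of C57BL/6J mice that the labels give as 7 weeks old. The miR-155KI mice carried the CD4Cre transgene and both copies of a Cre-dependent miR-155 allele in the Rosa26 locus, and the WT controls were littermates with the same knock-in allele but without CD4Cre. CD4Cre acts from the CD4+CD8+ double-positive thymocyte onwards and therefore in conventional T cells as well as in iNKT cells, so the transgene was not restricted to the sorted cells. Presence of Cre itself differed between genotypes, and an effect of Cre cannot be told apart from one of miR-155. iNKT cells were sorted by flow cytometry, the NK1.1- pool holding stages 1 and 2 and the NK1.1+ pool stage 3. The same replicate numbers, attached to the genotype, recur in both pools, but the labels do not say that a number is 1 mouse. The spread behind every p-value is that between libraries, which may be technical. WT replicate 1 differed from WT replicates 2 and 3 in sex-linked transcripts, given below, so the WT replicates were not all 1 sample.

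Invariant NKT cells are T cells with a nearly fixed T cell receptor that recognise lipid antigens on CD1d, and they acquire effector programmes while still in the thymus. Their main sublineages are iNKT1 cells, which depend on T-bet and make IFN-γ, iNKT2 cells, which are high in PLZF and make IL-4, and iNKT17 cells, which make IL-17. NK1.1 is acquired late and mostly by iNKT1 cells, so the NK1.1- pool is a mixture of precursors, immature iNKT1 cells, iNKT2 and iNKT17 cells. MicroRNA-155 represses messenger RNAs whose 3′ untranslated regions pair with its seed, the bases near its 5′ end, and it is known in lymphocytes for its roles in activation and effector differentiation.

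The sequence that sets which transcripts miR-155 can pair with is shown first, followed by its matches in 7 genes whose values are given further on. Mature miR-155-5p is encoded at chr16:84714143-84714165 on the plus strand (GRCm38.p6, RefSeq), inside the host gene Mir155hg, and the capitals mark its seed, bases 2 to 8.
mmu-miR-155-5p: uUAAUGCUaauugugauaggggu

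Matches were searched as AGCATTAA (pairing to bases 2 to 8 followed by A), AGCATTA and GCATTAA on the sense strand of the 3′ untranslated region of 1 coding transcript a gene (GENCODE, GRCm38), and an AGCATTAA was not counted again as either of the shorter words it contains. Of the 12419 tested genes with such a transcript, 1488 (12%) held at least 1 of the 3 words and 358 (2.88%) held AGCATTAA. None of the 4 genes that passed held any of them, and among the other leading genes named below the only one that did was Ikzf3 (chr11:98465351-98465379, minus strand). The sites of Ikzf3 and of 6 genes reported as miR-155 targets or listed as such in the study are printed with their flanks, with the matching word in capitals.
Ikzf3: ttgatgtgtggGCATTAAgcagacaagtc
Jarid2, first site: gattttgttttAGCATTAAactgttcaagt
Jarid2, second site: tccctcacatcAGCATTAAtctttgtttcc
Ets1: ctgggttttaaAGCATTAAccttcatggtg
Tab2: ataaggtagaaAGCATTAAtgaaatgaaac
Dyrk2: aatgctgtggtAGCATTAAaaaaaaagtat
E2f2, first site: tttaagtttgtAGCATTAAattgatttaaa
Rictor: ttatgttaaggGCATTAAagcctcctgaa

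On GRCm38 the second of these, the first Jarid2 site, lies at chr13:44920082-44920111 and the other Jarid2 site at chr13:44920855-44920884. The sites of Ets1 (chr9:32757197-32757226), E2f2 (chr4:136194400-136194429) and Rictor (chr15:6800318-6800346) are on the plus strand like those of Jarid2, and those of Tab2 (chr10:7906680-7906709) and Dyrk2 (chr10:118856017-118856046) are on the minus strand. All lie in 3′ untranslated regions, and a match is a description of the sequence, not evidence of pairing in these cells.

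Depth ran from 12819500 to 20518300 counts a library. Mir155hg, the primary transcript that carries miR-155, was 13, 13.7 and 9.65 CPM (read counts scaled to a common library size) in WT NK1.1-, 144, 137 and 132 in miR-155KI NK1.1-, 12.1, 11.7 and 11.2 in WT NK1.1+ and 116, 128 and 95.2 in miR-155KI NK1.1+ libraries. All 6 miR-155KI libraries were thus far above all 6 WT libraries, in both pools: log2 miR-155KI over WT was 3.51 (SE 0.17) in NK1.1- and 3.28 (SE 0.17) in NK1.1+, a difference of 0.23 with a 95% interval of -0.23 to 0.70. Transcripts of the host gene and of the Rosa26 allele cannot be told apart in these counts, and mature miR-155 was not measured in these libraries. Klrb1c, which encodes NK1.1, ran from 36.7 to 79.9 CPM in the NK1.1- and from 358 to 774 CPM in the NK1.1+ libraries, so each pool matched its label.

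Several libraries stood apart. MiR-155KI NK1.1+ replicate 1 had 24.7 CPM of Cd8a and 3.25 CPM of Rag1, genes of double-positive thymocytes. Cd8a was otherwise at most 16.8 CPM, in WT NK1.1- replicate 1, and Rag1 at most 2.27 CPM, in miR-155KI NK1.1+ replicate 3. The 13 tested myeloid and dendritic cell markers summed to 485, 1022 and 367 CPM in the 3 miR-155KI NK1.1+ libraries and to between 129 and 327 CPM in the other 9. This marker level moves with the group that enters the comparison with a minus sign, and genes of that list are treated separately at the end. Xist, transcribed from the inactive X chromosome, was 135 to 237 CPM in replicates 2 and 3 of both WT groups and 8.19 to 35.0 CPM in the other 8 libraries. The Y-linked gene Ddx3y was 3.29 to 6.92 CPM in those 4 WT libraries and 52.5 to 76.6 CPM in the other 8, so sex-linked transcripts differed between the genotypes, 4 of 6 WT libraries having the female pattern and 0 of 6 miR-155KI libraries. The part of sex in the results was not tested beyond removing sex-linked genes. The haemoglobin gene Hba-a1 was highest in replicate 3 of each group, between 22.7 and 138 CPM.

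Among genes whose genotype effect differed between the pools, 3 were relatively higher in miR-155KI NK1.1- cells (Sostdc1, Csf1 and Parm1) and 1 was relatively lower (Aqp11). This was 0.0278% of the genes tested, 0.0208% in the higher and 0.00694% in the lower direction. Sostdc1, a secreted antagonist in the BMP and Wnt pathways, and Csf1, the growth factor of macrophages, had a positive genotype effect in the NK1.1- pool, with overlapping genotypes in the NK1.1+ pool. Parm1, a membrane mucin-like protein, and Aqp11, an aquaporin of intracellular membranes, had genotype effects of opposite sign in the 2 pools. Because these are bulk libraries, more cells of a type and more RNA in each cell cannot be told apart.

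Sostdc1 (ENSMUSG00000036169, chr12:36314139-36318452, plus strand, GRCm38) was 3.42, 2.57 and 2.73 CPM in WT NK1.1-, 36.4, 46.6 and 56.7 in miR-155KI NK1.1-, 2.38, 1.87 and 1.75 in WT NK1.1+ and 1.53, 1.87 and 2.71 in miR-155KI NK1.1+ libraries. The 3 miR-155KI NK1.1- libraries were far above all of the other 9, and in the NK1.1+ pool the genotypes overlapped. Means were 2.91 ± 0.450 and 46.6 ± 10.1 CPM (SD, n = 3) in WT and miR-155KI NK1.1- and 2.0 ± 0.332 and 2.04 ± 0.610 CPM in WT and miR-155KI NK1.1+. The log2 genotype effect was 4.0 (SE 0.31) in NK1.1- and 0.027 (SE 0.30) in NK1.1+, and their difference was 3.97 (SE 0.42, adjusted p = 7.89e-04, edgeR).

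Csf1 (ENSMUSG00000014599, chr3:107741048-107760469, minus strand) was 45.5, 44.8 and 51.2 CPM in WT NK1.1-, 163, 116 and 171 in miR-155KI NK1.1-, 13.3, 10.9 and 11.2 in WT NK1.1+ and 11, 9.89 and 7.76 in miR-155KI NK1.1+ libraries. Every NK1.1- library was above every NK1.1+ library, and within NK1.1- the miR-155KI libraries did not overlap the WT libraries. Group means were 47.2 ± 3.49 and 149.9 ± 29.95 CPM (SD, n = 3) in NK1.1- and 11.8 ± 1.33 and 9.55 ± 1.65 CPM in NK1.1+, WT first. The genotype-by-pool difference was 1.97 (SE 0.25, adjusted p = 0.00547, edgeR), from 1.67 (SE 0.18) in NK1.1- and -0.31 (SE 0.18) in NK1.1+.

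Parm1 (ENSMUSG00000034981, chr5:91517615-91626894, plus strand) was 5.17, 5.03 and 7.86 CPM in WT NK1.1-, 23.1, 19.6 and 25.4 in miR-155KI NK1.1-, 1.7, 2.45 and 1.3 in WT NK1.1+ and 0.929, 0.761 and 0.694 in miR-155KI NK1.1+ libraries. The 4 groups did not overlap, with miR-155KI NK1.1- highest and miR-155KI NK1.1+ lowest. Parm1 was thus higher with miR-155KI in NK1.1- (1.91, SE 0.33) and lower in NK1.1+ (-1.19, SE 0.37), a difference of 3.1 (SE 0.50, adjusted p = 0.0438, edgeR). Its NK1.1+ levels were low, from 0.694 to 2.45 CPM.

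Aqp11 (ENSMUSG00000042797, chr7:97724006-97738289, minus strand) was 14.1, 15.4 and 19.97 CPM in WT NK1.1-, 7.26, 5.19 and 4.76 in miR-155KI NK1.1-, 9.45, 9.05 and 9.66 in WT NK1.1+ and 35, 25.1 and 18.1 in miR-155KI NK1.1+ libraries. WT cells had more Aqp11 in the NK1.1- pool and miR-155KI cells more in the NK1.1+ pool, with no overlap in either genotype. The log2 genotype effect was -1.52 (SE 0.28) in NK1.1- and 1.47 (SE 0.28) in NK1.1+, and the difference was -2.99 (SE 0.40, adjusted p = 0.00577, edgeR). Of the 4 genes it was the one whose pool order turned round with genotype: NK1.1- over NK1.1+ was 0.81 in WT and -2.18 in miR-155KI on the log2 scale.

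**Figure D1:**
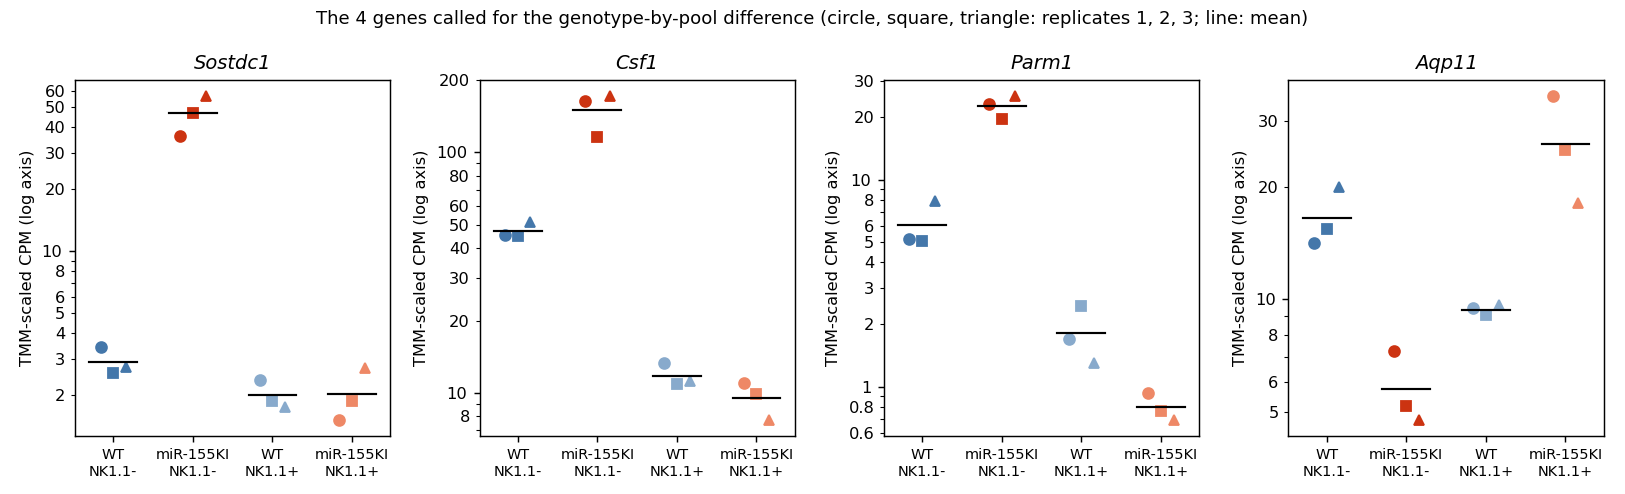
TMM-scaled CPM (log axis) of the 4 genes that passed, by group, with 1 marker for each of the 3 replicates and a line at the mean. Sostdc1, Csf1 and Parm1 are highest in miR-155KI NK1.1-, and Aqp11 is lowest there and highest in miR-155KI NK1.1+.

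The number of genes that passed changed with the miR-155KI NK1.1+ libraries. Without miR-155KI NK1.1+ replicate 1, edgeR called 46 of 15049 genes (0.306%; 19 higher, 0.126%, and 27 lower, 0.179%), without replicate 2 of that group 7, and without replicate 3 of it 14. Leaving out any single library of the other groups gave 3 to 5 calls. The fit without miR-155KI NK1.1+ replicate 1 thus gave the most calls of those with libraries left out. Zfp683, Itgae, Tbx21, Cxcr3, Nkg7, Ctsd, Lgals3, Bcl6 and Tnfsf11, given below, passed in that fit and in no other fit with libraries left out. DESeq2 on all libraries called 140 of 15439 genes (0.907%; 58 higher, 0.376%, and 82 lower, 0.531%), the 4 genes included. The 4 genes were also all among the 46, with differences of 3.77 for Sostdc1 (adjusted p = 0.00128), 2.05 for Csf1 (0.00777), 3.18 for Parm1 (0.0164) and -2.76 for Aqp11 (0.00904). limma-voom on all libraries called 0 of 14401 genes, and with library weights 8 (0.0556%), all lower. With a replicate block of genotype and number edgeR called 23 genes (0.16%; 7 higher and 16 lower), and Parm1 was not among them (adjusted p = 0.0522). Sostdc1, Csf1 and Aqp11 passed without any single library. Parm1 did not pass without WT NK1.1- replicate 1 or 2, any miR-155KI NK1.1- library, or WT NK1.1+ replicate 1 or 2, where its difference was 2.83 to 3.2 (adjusted p = 0.067 to 0.25). With the level of the myeloid markers as a covariate, edgeR called 0 genes (353 at an unadjusted p under 0.05). That level, a mean of log2 CPM, was 3.33 to 3.91 in miR-155KI NK1.1+ and 1.08 to 2.65 in all other libraries. The fit could therefore hardly separate the markers from that group. The estimates were then 4.2 (SE 0.78) for Sostdc1, 2.08 (SE 0.46) for Csf1, 2.62 (SE 0.87) for Parm1 and -3.36 (SE 0.68) for Aqp11, and the median SE over all genes was 0.704, against 0.393 without the covariate.

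The next 7 genes in the higher direction did not pass with edgeR, with adjusted p of 0.0536 to 0.191, and all 7 passed with DESeq2 (adjusted p = 1.40e-04 to 0.0221). With limma-voom 0 genes passed. Of the 31 other settings, Myo6 passed in 7, Maml2 in 5, Arhgap24 in 4, Tceal3 in 3, Scn8a and Zcchc18 in 2 and Gpnmb in 1. Maml2, a Mastermind coactivator of Notch, was 22.5, 23.7 and 17.2 CPM in WT NK1.1-, 34.7, 34.7 and 36.6 in miR-155KI NK1.1-, 39.9, 38.7 and 46.7 in WT NK1.1+ and 23.3, 26.3 and 29.3 in miR-155KI NK1.1+ libraries. Its miR-155KI libraries lay above WT in NK1.1- and below WT in NK1.1+, without overlap, for a difference of 1.41 (SE 0.25, adjusted p = 0.0536, edgeR). Myo6, a myosin that moves towards the minus end of actin filaments, showed the same arrangement, with 0.64 (SE 0.16) in NK1.1-, -0.65 (SE 0.16) in NK1.1+ and a difference of 1.29 (SE 0.23, adjusted p = 0.0536).

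Arhgap24, a GTPase-activating protein for Rac, was 24.2, 16.6 and 19.9 CPM in WT NK1.1-, 105, 94.6 and 88.3 in miR-155KI NK1.1-, 6.15, 5.37 and 3.95 in WT NK1.1+ and 7.89, 9.71 and 6.62 in miR-155KI NK1.1+ libraries. Here the genotype effect had the same sign in both pools and was larger in NK1.1- (2.25, SE 0.21) than in NK1.1+ (0.65, SE 0.22; difference 1.6, adjusted p = 0.0742). Zcchc18, a zinc finger gene on the X chromosome, was 8.24, 7.89 and 5.58 CPM in WT NK1.1- and 20.1 to 36.5 CPM in the other 9 libraries. WT NK1.1- cells were thus the low group, and the difference was 1.58 (SE 0.34, adjusted p = 0.147). The remaining 3 were Scn8a, a voltage-gated sodium channel (1.78, SE 0.37), Tceal3, also X-linked (1.91, SE 0.42), and Gpnmb, a transmembrane glycoprotein (0.86, SE 0.19).

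Of the next genes in the lower direction 8 are given here, with adjusted p of 0.0527 to 0.127 in edgeR and 1.70e-05 to 0.00724 in DESeq2, and they included transcription factors of lymphocytes. They passed in from 2 (Timeless and Ikzf3) to 9 (Samd3) of the 31 other settings. Zfp683, which encodes Hobit, a transcription factor of tissue-resident lymphocytes, was 63, 57.1 and 53.5 CPM in WT NK1.1-, 22.9, 25.6 and 27.1 in miR-155KI NK1.1-, 209, 171 and 172 in WT NK1.1+ and 152, 178 and 179 in miR-155KI NK1.1+ libraries. In NK1.1- the genotypes did not overlap and in NK1.1+ they did. Its difference was -1.09 (SE 0.19, adjusted p = 0.0527, edgeR) and without miR-155KI NK1.1+ replicate 1 it was -1.19 (adjusted p = 0.0145). Itgae, the CD103 integrin chain that binds E-cadherin, had the same arrangement, at 202, 334 and 264 CPM in WT NK1.1- and 96.7, 89.5 and 112 in miR-155KI NK1.1- against 529, 549 and 627 in WT NK1.1+ and 399.9, 656 and 579 in miR-155KI NK1.1+ libraries. The difference for Itgae was -1.36 (SE 0.26, adjusted p = 0.0996), or -1.58 without that library (adjusted p = 0.0126). With a replicate block of genotype and number, Zfp683 and Itgae passed (adjusted p = 0.0175 and 0.0369, edgeR).

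Samd3 (-1.35 in NK1.1-, 0.19 in NK1.1+), Myo1f, a myosin of leukocytes (-1.1 and 0.084), Sytl1, a synaptotagmin-like protein of secretory vesicles (-1.07 and 0.032), and Ikzf3, the Ikaros family factor Aiolos (-0.83 and 0.15), were likewise lower with miR-155KI in NK1.1- and within 0.2 of WT on the log2 scale in NK1.1+. Their differences were -1.54 (SE 0.26), -1.18 (SE 0.21), -1.11 (SE 0.22) and -0.97 (SE 0.20). For the other 2 genes the larger genotype effect was in the NK1.1+ pool. Tnni1, the slow skeletal troponin I, was 11.8, 5.09 and 7.64 CPM in WT NK1.1-, 8.4, 13.2 and 8.03 in miR-155KI NK1.1-, 1.24, 1.81 and 1.6 in WT NK1.1+ and 10.7, 15 and 14.3 in miR-155KI NK1.1+ libraries, so WT NK1.1+ was the low group. Timeless, a replication fork protein, was 20.3, 24.8 and 19.7 CPM in WT NK1.1+ and 36.7, 34.4 and 35.9 in miR-155KI NK1.1+ libraries, without overlap. In NK1.1- Timeless was 61.2, 60.4 and 67.2 CPM in WT and 55.3, 43.9 and 48.4 in miR-155KI libraries, again without overlap.

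**Figure D2:**
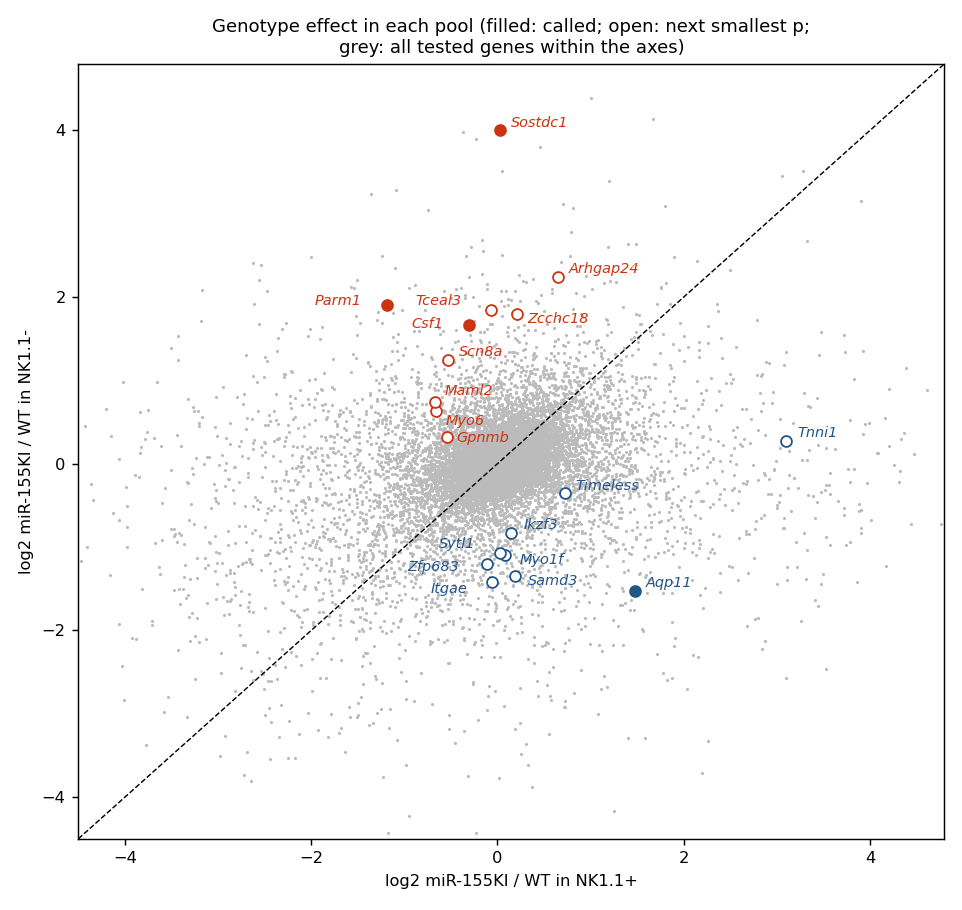
Each point is a gene, with the log2 ratio of miR-155KI over WT in NK1.1+ on the x axis and in NK1.1- on the y axis; the dashed line marks equal effects. Filled points are the 4 genes that passed and open points 15 of the next; 6 of the 8 open points on the lower side lie below 0 on the y axis near 0 on the x axis, while Tnni1 and Timeless lie to the right.

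Grouped by programme, iNKT1 genes had negative genotype-by-pool estimates throughout. Of the 31 tested members 0 passed with edgeR, 13 of them had an unadjusted p under 0.05, all in the lower direction, and all 31 estimates were below 0; over all tested genes 8.1% had an unadjusted p under 0.05 and 48.7% of estimates were above 0. The list median was -0.57, against -0.015 over all tested genes. DESeq2 called 4 members, all lower, against 0.531% of all genes lower: Ifng (adjusted p = 0.0306), Il18rap (0.0402), Cxcr3 (0.0402) and Tbx21 (0.0429). Tbx21, which encodes T-bet, was 131, 147 and 123 CPM in WT NK1.1-, 43.7, 64.5 and 65.7 in miR-155KI NK1.1-, 437, 482 and 367 in WT NK1.1+ and 268, 516 and 429.7 in miR-155KI NK1.1+ libraries. NK1.1- genotypes did not overlap, and in NK1.1+ replicate 1 of miR-155KI was the only library below the WT range. The Tbx21 difference was -1.12 (SE 0.29, adjusted p = 0.293, edgeR), and without that library it was -1.38 and passed (adjusted p = 0.0192). Tbx21 passed in 4 of the 31 other settings. With a replicate block of genotype and number, Tbx21, Il18rap, Ifng and Cxcr3 passed (adjusted p = 0.0175 to 0.0364, edgeR).

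Ifng, the cytokine of iNKT1 cells, was 39.1, 70.4 and 49.3 CPM in WT NK1.1- and 16.3, 24.5 and 21.7 in miR-155KI NK1.1-, and 129 to 269 CPM in the 6 NK1.1+ libraries, where the genotypes overlapped. The difference was -1.46 (SE 0.41, adjusted p = 0.327, edgeR). Il18rap, a subunit of the IL-18 receptor, had -1.25 (SE 0.33, adjusted p = 0.305), and Cxcr3, the receptor for interferon-induced chemokines, -1.28 (SE 0.36, adjusted p = 0.329). Cxcr3 passed without miR-155KI NK1.1+ replicate 1, at -1.57 (adjusted p = 0.0313), and so did Nkg7, a granule membrane protein, at -1.25 (adjusted p = 0.0401) from -0.96 with all libraries. By contrast the intervals of Gzma, granzyme A (-1.68 to 0.67), Ccl5 (-0.89 to 0.40) and Il2rb, the β chain of the IL-2 and IL-15 receptors (-0.68 to 0.086), included 0. For Ccl5 the log2 genotype effect was -0.89 (SE 0.22) in NK1.1- and -0.65 (SE 0.21) in NK1.1+, without overlap of genotypes in either pool.

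The NK receptor and cytotoxic granule lists share members with the iNKT1 list, such as Klrk1 and Nkg7, so they are not separate from it. Their counts at an unadjusted p under 0.05 stand against 8.1% over all genes (edgeR). NK cell receptor genes had mostly negative estimates. Of 25 tested, 0 passed with edgeR or DESeq2, 6 had an unadjusted p under 0.05, 24 were below 0 and the median was -0.74; Klra3, a Ly49 receptor gene of a family with near-identical copies (-0.98, SE 0.34), and Klrk1, which encodes NKG2D (-0.81, SE 0.30), had unadjusted p of 0.0114 and 0.0152 (edgeR). Of the 18 cytotoxic granule genes 0 passed with edgeR or DESeq2, 3 had an unadjusted p under 0.05 and 14 were below 0 (median -0.28), with the proteases Ctsd at -0.67 (SE 0.20) and Ctsw at -0.57 (SE 0.18). Without miR-155KI NK1.1+ replicate 1 the granule median was -0.50. There 2 members, Nkg7 and Ctsd, passed (adjusted p = 0.0401, edgeR), both lower, against 0.179% of all genes. Of the 31 other settings, Nkg7 passed in 2 and Ctsd in 1. Nkg7 is also 1 of the iNKT1 members that passed in that fit. The summed CPM of the iNKT1 list was 2992, 3592 and 3082 in WT NK1.1-, 1818, 2154 and 2132 in miR-155KI NK1.1-, 13507, 11815 and 11283 in WT NK1.1+ and 8509, 13081 and 12839.7 in miR-155KI NK1.1+ libraries. Replicate 1 of miR-155KI NK1.1+ was lowest of its pool; without it the list median was -0.79, and 3 of 31 members passed, all lower, against 0.179% of all genes in that fit.

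iNKT17 genes likewise had mostly negative estimates. Of 28 tested 0 passed with edgeR, 24 were below 0, 11 of these and 1 above 0 had an unadjusted p under 0.05 (8.1% over all genes), and the median was -0.75. DESeq2 called 5 members lower, against 0.531% of all genes, among them Aqp3 (adjusted p = 0.00197), Il1r1 (0.0107), Lgals3 (0.0264) and Ccr6 (0.0485). It called 1 higher, Sox13 (0.0180), against 0.376% of all genes. The receptor genes Il1r1 (-3.35, SE 0.90) and Ccr6 (-3.57, SE 1.13) and, from the cytokine receptor list, Il17re (-3.23, SE 0.75) had differences beyond -3. Il17re, a receptor chain for IL-17C, was 16.5, 21.6 and 18.5 CPM in WT NK1.1-, 2.32, 2.11 and 3.69 in miR-155KI NK1.1-, 4.55, 5.72 and 1.95 in WT NK1.1+ and 6.37, 8.78 and 1.39 in miR-155KI NK1.1+ libraries. WT NK1.1- stood above the other groups, which overlapped. Aqp3, an aquaglyceroporin, had -1.92 (SE 0.41, adjusted p = 0.147, edgeR) and Lgals3, galectin-3, -0.92 (SE 0.21, adjusted p = 0.192). Lgals3 passed without miR-155KI NK1.1+ replicate 1 (-1.09, adjusted p = 0.0297).

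Other members of this programme were arranged differently. Sox13, an HMG-box factor best known from IL-17-producing γδ T cells, was 14, 25 and 16.5 CPM in WT NK1.1-, 90.3, 94.2 and 30.7 in miR-155KI NK1.1- and 10.2 to 15.7 CPM in the 6 NK1.1+ libraries. It was thus highest in miR-155KI NK1.1-, with replicate 3 the lowest of the 3, and the difference was 1.92 (SE 0.49, adjusted p = 0.280, edgeR). Il17a, the cytokine itself, was 3.98, 19 and 7.31 CPM in WT NK1.1- and at most 3.56 CPM in every other library. Its genotype effect was negative in both pools, -3.11 (SE 0.69) in NK1.1- and -1.33 (SE 0.68) in NK1.1+, and the interval of the difference, -3.79 to 0.23, included 0.

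iNKT2 genes were mostly above 0. Of 22 tested 0 passed with edgeR or DESeq2 and 17 were above 0. Of these 3, and 1 below 0, had an unadjusted p under 0.05 (8.1% over all genes). The median was 0.12, or 0.24 without miR-155KI NK1.1+ replicate 1. Il4 was 118, 122 and 131 CPM in WT NK1.1-, 155, 202 and 159 in miR-155KI NK1.1-, 66.2, 57.3 and 61 in WT NK1.1+ and 56.8, 55.3 and 60.1 in miR-155KI NK1.1+ libraries. In NK1.1- the genotypes did not overlap, and the difference was 0.58 (SE 0.18, adjusted p = 0.365, edgeR). Pdcd1, the gene for the checkpoint receptor PD-1, had a log2 genotype effect of 0.99 (SE 0.14) in NK1.1- and 0.34 (SE 0.14) in NK1.1+, a difference of 0.64 (adjusted p = 0.337). Ccr4 was at 0.57 (SE 0.21) and Ltb, lymphotoxin β, at -0.58 (SE 0.25).

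For the transcription factors Zbtb16 (PLZF) and Gata3 the genotypes overlapped in both pools, and the differences were 0.32 (-0.12 to 0.76) and 0.035 (-0.33 to 0.40). Il17rb, the IL-25 receptor chain of iNKT2 cells, had non-overlapping genotypes in both pools, with log2 effects of 0.90 (SE 0.18) in NK1.1- and 0.65 (SE 0.19) in NK1.1+ and a difference of 0.25 (-0.30 to 0.81). Genes of stages 0 and 1 were divided, with 10 of 22 above 0. With edgeR 0 were called and 5 had an unadjusted p under 0.05 (8.1% over all genes). DESeq2 called 1, Bcl6, higher (0.376% of all genes). The list median was -0.055, and 0.067 without miR-155KI NK1.1+ replicate 1. Bcl6, a zinc finger repressor, was 8.1, 7.89 and 10.4 CPM in WT NK1.1-, 16.5, 15.9 and 18.8 in miR-155KI NK1.1-, 12.7, 14.6 and 17.8 in WT NK1.1+ and 11.4, 4.86 and 8.45 in miR-155KI NK1.1+ libraries. Its genotype effect was positive in NK1.1- and negative in NK1.1+, without overlap in either, for a difference of 1.82 (SE 0.43, adjusted p = 0.197, edgeR; 2.1 without miR-155KI NK1.1+ replicate 1, adjusted p = 0.0412; DESeq2 adjusted p = 0.00435).

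**Figure D3:**
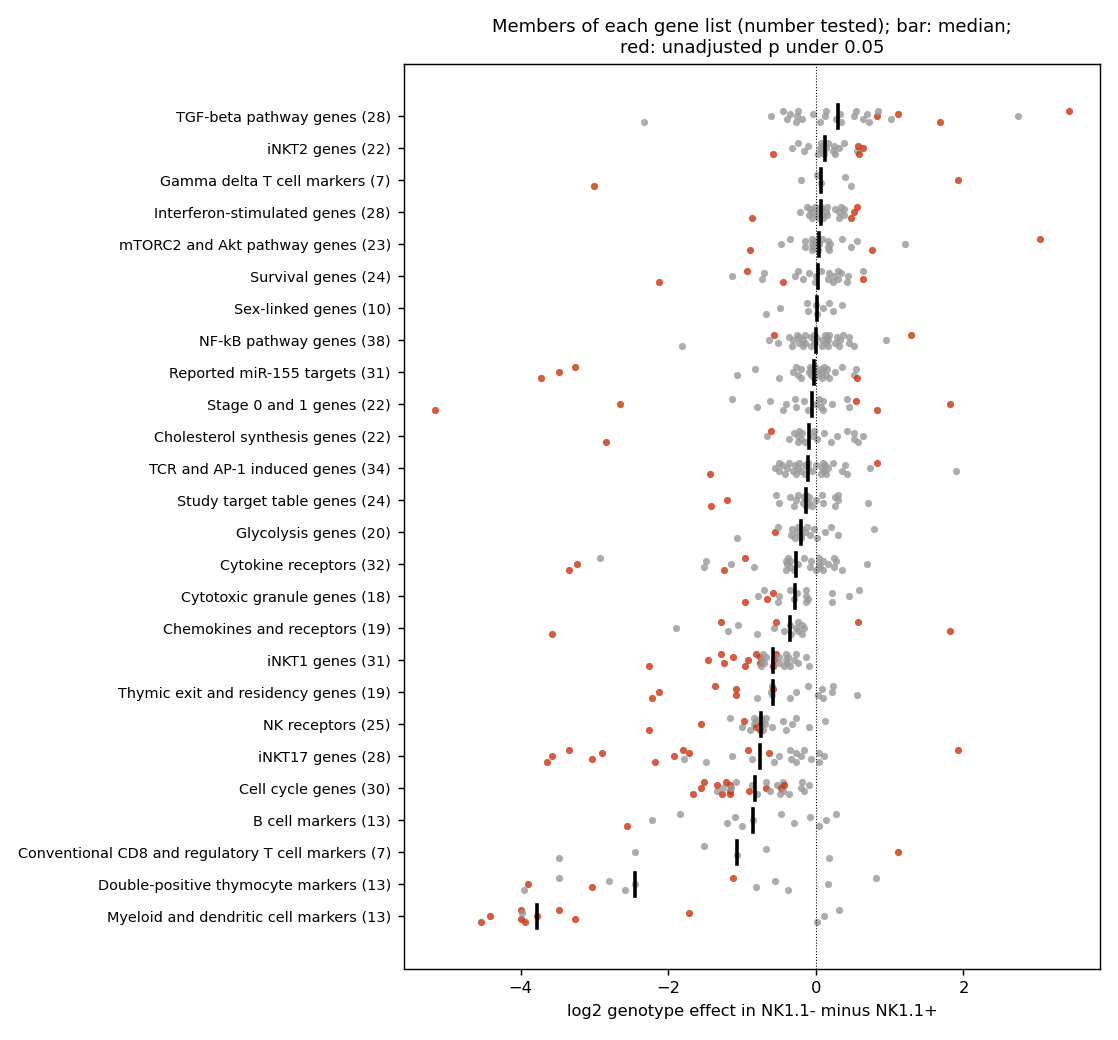
Genotype-by-pool difference (log2, x axis) of every tested member of the 26 gene lists, with the number tested in brackets, a bar at the list median and red points for an unadjusted p under 0.05. All iNKT1 and all cell cycle points lie below 0, most iNKT2 points (17 of 22) lie above 0, and myeloid markers reach furthest to the left by median (-3.78).

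Receptors for chemokines and genes of thymic residency and exit had estimates of both signs. Over all tested genes 8.1% had an unadjusted p under 0.05 (edgeR), and DESeq2 called 0.376% higher and 0.531% lower. Cxcr5, the receptor for CXCL13, was 13.2, 9.67 and 7.98 CPM in WT NK1.1-, 50.3, 43.6 and 26.5 in miR-155KI NK1.1- and 2.22 to 3.58 CPM in NK1.1+ libraries, a difference of 1.82 (SE 0.43, adjusted p = 0.197, edgeR). It was 1 of 2 members above 0 among 19 tested chemokine and receptor genes (median -0.35, or -0.52 without miR-155KI NK1.1+ replicate 1; 0 called by edgeR, 5 at an unadjusted p under 0.05), Ccr4 being the other. DESeq2 called Cxcr5 higher (adjusted p = 0.0101) and Cxcr3 and Ccr6 lower. Of 19 exit and residency genes 13 were below 0, 6 had an unadjusted p under 0.05 and 0 passed with edgeR (median -0.58), and DESeq2 called Zfp683 and Itgae lower (adjusted p = 4.22e-04 and 0.00223). S1pr1, the sphingosine phosphate receptor that draws T cells out of the thymus, was 118, 92.7 and 129 CPM in WT NK1.1-, 143, 117 and 128 in miR-155KI NK1.1-, 34.1, 23.4 and 21.7 in WT NK1.1+ and 95, 45.4 and 52 in miR-155KI NK1.1+ libraries. The genotypes overlapped in NK1.1- and not in NK1.1+, and the difference was -1.09 (SE 0.35, adjusted p = 0.379), or -0.73 without miR-155KI NK1.1+ replicate 1. Cytokine receptors had 21 of 32 below 0 and 0 called by edgeR (4 at an unadjusted p under 0.05), and DESeq2 called 3 lower, Il17re (adjusted p = 0.00217), Il1r1 and Il18rap. Their median was -0.27, and -0.093 without miR-155KI NK1.1+ replicate 1.

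Transcripts with a seed match had medians of the genotype effect below 0 in both pools. The 358 genes with AGCATTAA had a median log2 miR-155KI over WT of -0.11 in NK1.1- and -0.15 in NK1.1+, the 1130 genes with only a shorter match had -0.057 and -0.065, and the 10931 without a match had 0.0064 and 0.035. The median genotype-by-pool difference was 0.036, 0.015 and -0.018 in these 3 classes, and all 4 genes that passed were in the last. Untranslated regions were longer in genes with a match, with a median of 2380.5 bases for AGCATTAA and 787 bases for none.

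Among named targets, Jarid2, a subunit of the PRC2 repressor complex, was 132, 173 and 170.0 CPM in WT NK1.1-, 136, 107 and 109 in miR-155KI NK1.1-, 97, 149 and 157 in WT NK1.1+ and 87.5, 82.8 and 78.4 in miR-155KI NK1.1+ libraries. Its log2 genotype effect was -0.43 (SE 0.17) and -0.70 (SE 0.17) in NK1.1- and NK1.1+, and the interval of the difference was -0.25 to 0.78. Tab2, an adaptor of the kinase TAK1, was at -0.64 and -0.73 (difference 0.09, -0.44 to 0.62). Rictor, the defining subunit of mTORC2, was at -0.42 and -0.37 (-0.053, -0.60 to 0.50), and the transcription factor Ets1 at -0.29 and -0.38 (0.088, -0.23 to 0.40).

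Dyrk2, a kinase, had -0.95 (SE 0.29) in NK1.1- and 0.47 (SE 0.28) in NK1.1+ (difference -1.42, adjusted p = 0.323 in edgeR and 0.0369 in DESeq2), and E2f2, an E2F transcription factor, was at -0.71 and 0.50 (difference -1.21, adjusted p = 0.487). Over the whole lists the median difference was -0.029 for 31 reported targets and -0.13 for the 24 genes of the study's own target table, or -0.10 and -0.082 without miR-155KI NK1.1+ replicate 1. With edgeR 0 passed in either list (4 and 2 at an unadjusted p under 0.05, against 8.1% of all genes). DESeq2 called 2 reported targets, Csf1r among them, and 1 gene of the study table, Dyrk2, all lower (0.531% of all genes). The genes of that table were listed by the study from these same libraries, so their values are not independent evidence of a direction.

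Lists of signalling pathways had medians on both sides of 0. These were -0.0022 for 38 NF-κB genes, 0.043 for 23 mTORC2 and Akt genes, -0.11 for 34 genes induced by the T cell receptor and AP-1, and 0.30 for 28 TGF-β genes, with 0 called in each by edgeR or DESeq2 (2, 3, 2 and 4 at an unadjusted p under 0.05). Without miR-155KI NK1.1+ replicate 1 they were -0.033, -0.018, -0.21 and 0.46. The share of all genes at an unadjusted p under 0.05 was 8.1% (edgeR). Tnfsf11, the ligand RANKL, was 35, 36.2 and 33.2 CPM in WT NK1.1-, 69.1, 74.3 and 62.5 in miR-155KI NK1.1-, 12.4, 14.5 and 11.2 in WT NK1.1+ and 17, 4.04 and 9.84 in miR-155KI NK1.1+ libraries. NK1.1- genotypes did not overlap and NK1.1+ genotypes did, and the difference was 1.29 (SE 0.46, adjusted p = 0.470, edgeR), or 1.82 without miR-155KI NK1.1+ replicate 1 (adjusted p = 0.0480). Mtor was at 0.76 (SE 0.23), its downstream kinase Sgk1 at -0.89 (SE 0.33) and the immediate early factor Egr1 at 0.84 (SE 0.29).

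Survival genes (24, median 0.034), glycolysis genes (20, -0.20), cholesterol synthesis genes (22, -0.087) and interferon-stimulated genes (28, 0.067) had 0 calls by edgeR or DESeq2 (4, 1, 2 and 4 at an unadjusted p under 0.05). Across all tested genes 8.1% had an unadjusted p under 0.05 (edgeR). The survival and cholesterol medians changed sign without miR-155KI NK1.1+ replicate 1, to -0.022 and 0.07. Bcl2, which protects against apoptosis, was 43.7, 38.4 and 35.1 CPM in WT NK1.1- and 57.8, 47.8 and 61.1 in miR-155KI NK1.1-, without overlap, and 127 to 176 CPM in NK1.1+ libraries. The Bcl2 difference was 0.64 (SE 0.22, adjusted p = 0.424, edgeR), while Bid, which promotes apoptosis, was at -0.93 (SE 0.30, adjusted p = 0.384).

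Cell cycle genes had all 30 estimates below 0, 13 of them at an unadjusted p under 0.05 (8.1% over all genes) and 0 past the adjusted threshold in edgeR or DESeq2 (median -0.83). Mcm2, a subunit of the replicative helicase, was 299, 283 and 365 CPM in WT NK1.1-, 211, 187 and 195 in miR-155KI NK1.1-, 168, 154 and 136 in WT NK1.1+ and 174, 152 and 131 in miR-155KI NK1.1+ libraries. Its difference of -0.67 (SE 0.19, adjusted p = 0.323, edgeR) came with -0.67 in NK1.1- and -0.003 in NK1.1+. The mitotic genes Kif11, a spindle motor, and Ccnb2, cyclin B2, instead had their larger genotype effects in NK1.1+, 1.17 (SE 0.31) and 0.93 (SE 0.31). Their highest NK1.1+ values, 49.5 CPM of Kif11 and 51.9 CPM of Ccnb2, were both in miR-155KI NK1.1+ replicate 1. Without that library the list median was -0.45, Kif11 was at -0.85 and Ccnb2 at -0.83.

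**Figure D4:**
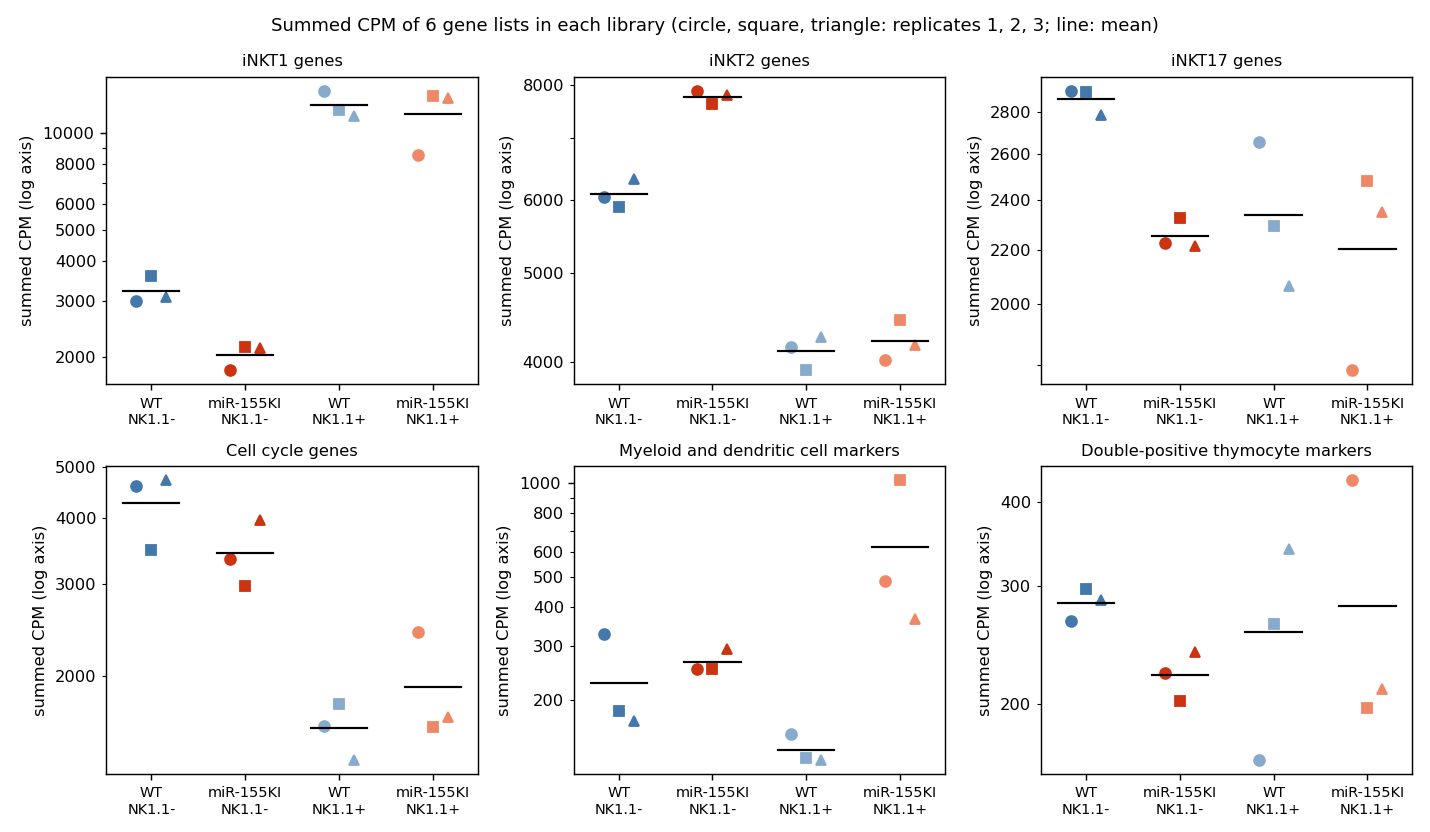
Summed TMM-scaled CPM (log axis) of 6 gene lists in each library, with 1 marker a replicate and a line at the mean. iNKT1 sums are lowest and iNKT2 sums highest in miR-155KI NK1.1-, and the myeloid sums are highest in miR-155KI NK1.1+.

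Markers of other cell types included the lowest list medians with all libraries. The 13 tested myeloid and dendritic cell markers had a median of -3.78, with 10 below 0 and 9 of those at an unadjusted p under 0.05. None passed with edgeR, and DESeq2 called 7, all lower, C1qc (adjusted p = 0.0104) and Csf1r (0.0194) among them. The shares over all genes were 8.1% at an unadjusted p under 0.05 (edgeR) and 0.531% called lower (DESeq2). C1qc, a complement component of macrophages, was 8.8, 2.0 and 2.29 CPM in WT NK1.1-, 3.4, 1.58 and 7.12 in miR-155KI NK1.1-, 2.22, 1.87 and 1.8 in WT NK1.1+ and 22.2, 74.8 and 21.1 in miR-155KI NK1.1+ libraries. All 3 miR-155KI NK1.1+ libraries were above the other 9, and in NK1.1- the genotypes overlapped (difference -4.41, SE 0.99, adjusted p = 0.217, edgeR). Csf1r (-3.26, SE 0.91), on the reported miR-155 target list as well, was likewise highest in the 3 miR-155KI NK1.1+ libraries. It is the receptor for Csf1, and its levels were at most 3.05 CPM outside miR-155KI NK1.1+.

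Double-positive thymocyte markers had a median of -2.45 over 13 genes, and of -0.74 without miR-155KI NK1.1+ replicate 1. Conventional CD8 and regulatory T cell markers were at -1.07 over 7 genes, and at 0.85 without it. B cell markers were at -0.85 (13 genes), γδ T cell markers at 0.071 (7 genes) and sex-linked genes at 0.0092 (10 genes), and at -0.32, -0.081 and -0.071 without it. With edgeR 0 genes passed in any of these 5 lists (7 at an unadjusted p under 0.05, against 8.1% of all genes). DESeq2 called 1 double-positive marker lower (0.531% of all genes) and 1 γδ marker, Sox13, higher (0.376%). The part of other cell types in the genotype-by-pool differences of iNKT genes was not tested beyond the covariate fit given above. That fit could hardly separate the myeloid markers from the miR-155KI NK1.1+ group.

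**Figure D5:**
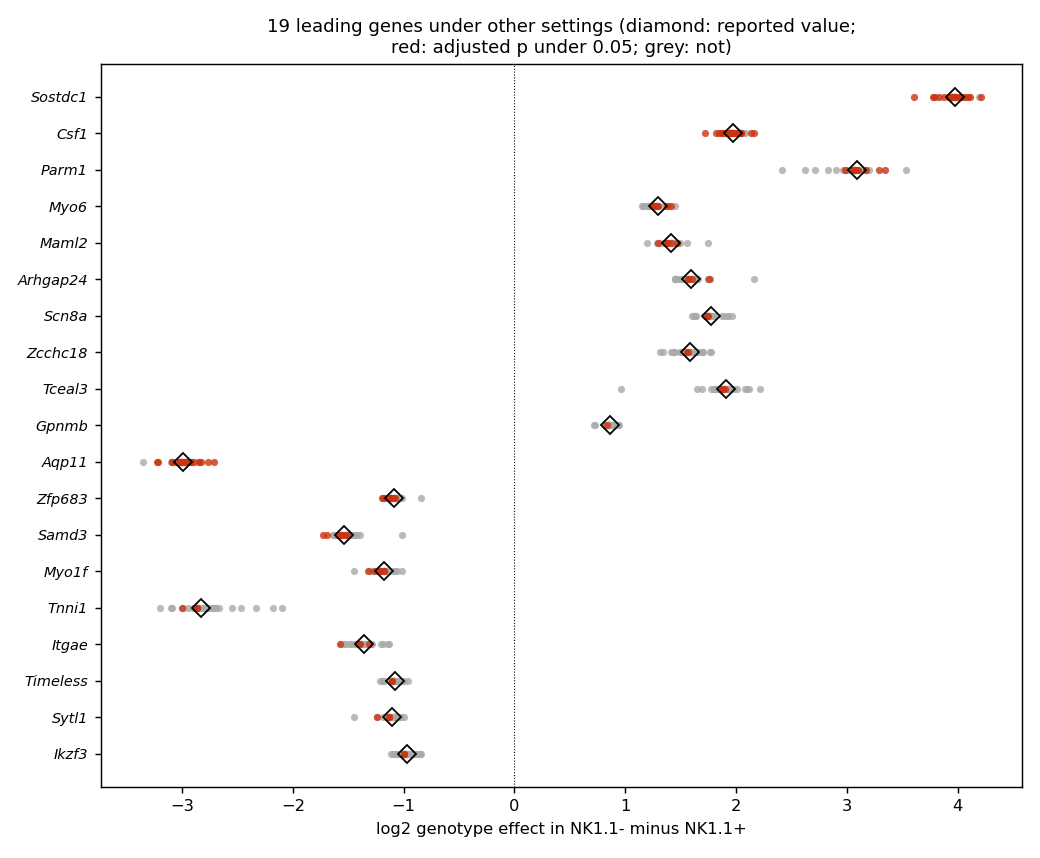
Genotype-by-pool difference (log2, x axis) of 19 leading genes with all libraries (diamond) and under 31 other settings (points, red where the adjusted p was under 0.05). Each gene keeps its sign throughout, and the adjusted p of Sostdc1 passes in 28 settings, Csf1 in 25, Parm1 in 11 and Aqp11 in 26.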

How the data were processed

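RNA from sorted thymic iNKT cells was sequenced in 12 libraries, 3 in each of 4 groups. The authors deposited a table of raw read counts per gene with 48709 gene names and a table of CPM for the same libraries. The deposited CPM are the counts multiplied by 1 scaling factor a library, a count signal scaled separately in each pool. They were not used in the main test, and only the settings on log2(CPM + 1) and log2(CPM + 0.1) used them. Per the labels, libraries were made with a SMART-Seq v4 Ultra Low Input kit from separate samples, whereas the study's methods name a TruSeq kit and pooled replicates. The submitters' processing notes name bcl2fastq and mm10. The aligner and counter are not given in the sources used here, nor is strandedness. In the table, 25 gene names had been turned into dates and stayed unnamed.

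Counts were filtered with filterByExpr over the 4 groups, scaled by TMM and fitted in 1 model of 4 group means with edgeR 4.0.16 (quasi-likelihood, robust) in R 4.3.3. The contrast was tested two-sided with Benjamini-Hochberg adjustment over all 14401 genes tested, at 0.05. CPM in the text are TMM-scaled, and intervals are 95% intervals. The procedure was tested on simulated independent counts, with effects placed only in miR-155KI NK1.1-. The simulation held no difference in sex, cell mixture or replicate number, so it tests the computation and not the calls made here. The share of all genes that passed stands beside the first count of calls by each tool. Genes were named by rule: up to 15 called a direction whose group mean reached 10 CPM somewhere, completed to 10 by the next smallest p, up to 4 members a list by smallest p, and genes the study names. Some genes under that rule are not reported here. The members and the 26 lists were chosen with earlier results of these data known, and some genes stand in more than 1 list. Other settings used limma 3.58.1, DESeq2 1.42.0, other filters and scalings, left-out libraries and the replicate number as a block. A covariate for the myeloid marker level was added after seeing the data. Correlations between libraries sharing a number ran from 0.061 to 0.29 and were over 0.1 in 3 of 6 numbers. The main fit did not treat numbers as pairs, and these values do not show that pairing is absent.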

Additional observations from a re-analysis of the deposited data

Results flagged for a closer look

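Each of the 4 genes that passed had a genotype effect that differed between the pools by the test of that difference itself (edgeR, adjusted p over all genes tested). The log2 genotype effect in NK1.1- minus that in NK1.1+ was 3.97 for Sostdc1 (adjusted p = 7.89e-04), 1.97 for Csf1 (adjusted p = 0.00547) and 3.1 for Parm1 (adjusted p = 0.0438). It was -2.99 for Aqp11 (adjusted p = 0.00577). For Sostdc1, Csf1 and Parm1 all 3 miR-155KI libraries were above all 3 WT libraries in NK1.1-. For Parm1 and Aqp11 the genotypes were apart in both pools and in opposite directions. The 4 genes were picked by p from these same libraries, so the separation describes them and adds no support.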

How the results depend on the processing

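The 4 genes kept their sign under all 31 other settings. Against 4 calls (3 higher, 1 lower), DESeq2 gave 140 (58 higher, 82 lower), including all 4. Without a filter on low counts there were 162 (35 and 127), with at least 10 counts in every library 10 (5 and 5), with RLE size factors 7 (3 and 4), and with sex-linked genes removed 7 (3 and 4). On log2(CPM + 1) of the deposited CPM, which were scaled separately in each pool, there were 4, of which 2 were lower. limma-voom gave 0 higher and 0 lower (1039 genes at an unadjusted p under 0.05), and with library weights 8 (0 and 8). The covariate for myeloid markers gave 0 in both directions (353 at an unadjusted p under 0.05). An unadjusted p under 0.05 with a fold over 1.3 held for 1152 genes (530 and 622). The cause of these differences was not tested.

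Leaving out libraries gave 1 to 46 calls (1 to 19 higher, 0 to 27 lower). The 46 came without miR-155KI NK1.1+ replicate 1, and 14 without replicate 3 of that group. Leaving out both WT libraries of a number gave 1 call. A replicate block of genotype and number gave 23 calls (7 and 16), while a block of the number alone gave 3. Under the former Zfp683, Itgae, Samd3, Myo1f, Myo6, Arhgap24, Tceal3, Tbx21, Il18rap, Ifng and Cxcr3 passed (adjusted p = 0.0102 to 0.0369) and Parm1 was at 0.0522. Correlations between libraries sharing a number were 0.29, 0.24 and 0.099 in WT and 0.12, 0.069 and 0.061 in miR-155KI. Of the 6 numbers 5 correlated best with their own number. The Xist and Ddx3y patterns of the WT numbers also recurred in both pools. The numbers are not read as pairing, but pairing is not shown to be absent.

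Differences near 0 changed sign. Gata3 was at -0.00145 without a filter and at -0.15 to 0.20 without single libraries or numbers. On leaving those out, Rictor ran from -0.26 to 0.12 and Tab2 from -0.082 to 0.32. The median SE of 0.39 with 3 libraries a group limits what could pass, so a difference that did not pass is not shown to be absent.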
